A study of Caenorhabditis elegans with 16 samples.

Results

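The wild-type L4 larval transcriptome of *C. elegans* was described from 4 RNA-seq libraries of the laboratory strain N2, which were all the wild-type libraries among the 16 libraries of the series. The libraries were chosen by their genotype label alone. The other 12 libraries came from *pals-22* mutants (allele jy3), from such mutants that also carried allele jy9 of *pals-25*, and from *pals-25* mutants with allele jy111, and were not compared here. Each wild-type library was made from total RNA of whole animals that had hatched into starved L1 larvae, were plated on OP50-1 bacteria, an *E. coli* food strain, and were collected as L4 larvae after 44 h at 20°C. The labels call the 4 libraries biological replicates and name no mutation or transgene in them. A library pooled many whole animals, so its values average over tissues and over any differences in age within the population, and in such bulk samples fewer cells of a type and less RNA per cell cannot be told apart.

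In the L4 stage the hermaphrodite germ line turns from making sperm to making oocytes, the vulva takes shape, and the epidermis lays down the cuticle of the adult under that of the larva. Cuticle collagens are transcribed in waves that recur with each molt, different collagens being used early and late in a cycle. Yolk proteins, the vitellogenins, are made in the intestine from the change to adulthood onwards. Levels are given here as TPM, which divide the counts of a gene by its length and scale each library to the same sum, so that genes of different length can be compared. Errors are SDs over the 4 libraries (n = 4), and p-values were not computed, since 1 group holds no comparison between groups.

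The 4 libraries held 14028579, 26618980, 26621479 and 23605724 counts on genes (replicates 1 to 4). Replicate 1 was the shallowest, and in it a gene of 1 kb at 1 TPM rested on 11.7 counts, against 21.8 in the library where that number was highest. In each of the 6 pairs the libraries differed by more than sampling noise (chi-square divided by the number of genes, 12.3 to 66.4), so all 4 were kept as separate samples. Replicate 1 stood apart from the rest: 366 to 954 genes (3.75% to 9.78% of 9759) lay at least 2-fold apart in the pairs that held it, and 41 to 65 genes (0.42% to 0.67%) in the pairs that did not. Ribosomal RNA took 0.374% of the counts in replicate 1 and 0.593% to 0.838% in the others.

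Several transcripts were also targets of qRT-PCR, and the primers of 3 of them are shown because their targets span the range from a steady housekeeping level to near silence in wild-type L4 animals. *snb-1* codes for synaptobrevin, a protein of synaptic vesicles, and was the control gene of those assays. *chil-27*, a chitinase-like gene, is a marker of the response to oomycetes, and *cul-6*, a cullin of a ubiquitin ligase, belongs to the response to intracellular pathogens. The primers are written 5′ to 3′, all in lower case.
snb-1 forward: ccggataagaccatcttgacg
snb-1 reverse: gacgacttcatcaacctgagc
cul-6 forward: ctgggcttactcacaatgcc
cul-6 reverse: gcagagttggcttgctgtaa
chil-27 forward: tcaagtggaggactgcaaca
chil-27 reverse: tgagttattttcggtagattccagt

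*snb-1* (V:6655562-6656501, WBcel235) was at 156, 166, 151 and 171 TPM, a mean of 161 ± 9.22 TPM. *cul-6* was lower, at 2.81, 4.51, 3.45 and 4.59 TPM. *chil-27* (II:9477867-9479696) had 1 count in replicate 1 and none in the other libraries and a mean of 0.0175 TPM, and was at the edge of detection. Of the other targets, *F26F2.1*, *F26F2.3* and *skr-5* averaged 0.576, 0.135 and 0.531 TPM, and *pals-5* 0.0562 TPM. *skr-1*, which codes for a Skp1-like protein, lay at 210 ± 8.41 TPM.

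Among 46904 listed genes, 14202 averaged at least 1 TPM, and the number in a single library ran from 13880 to 14320. Protein-coding genes made up 98.7% of all TPM. Of 19901 protein-coding genes, 13333 (67%) averaged at least 1 TPM. Their levels were spread over several orders of magnitude: 5751 lay between 1 and 10 TPM, 6210 between 10 and 100 TPM, 1179 between 100 and 1000 TPM and 193 at 1000 TPM or more. The pool was concentrated in few genes. The 67 most abundant genes made up 25% of all TPM, 238 made up 50% and 1177 made up 75%.

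**Figure D1:**
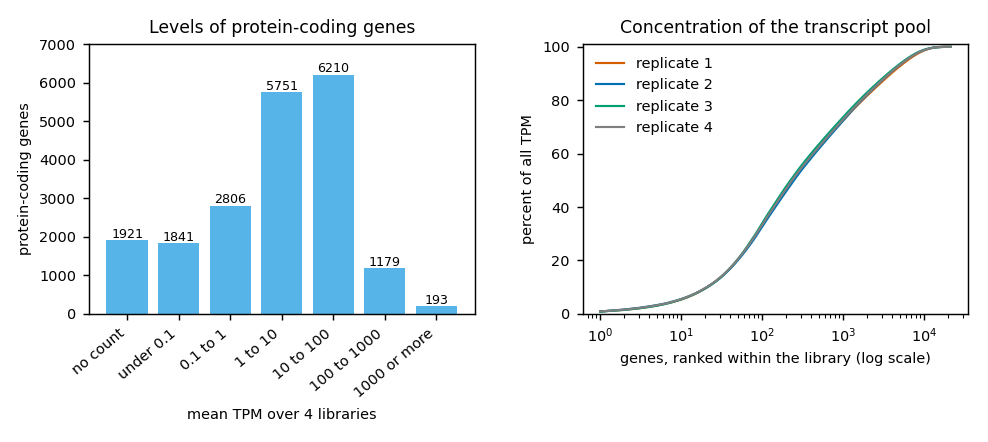
Left, number of protein-coding genes (vertical axis) in each bin of mean TPM over the 4 libraries. Right, percent of all TPM (vertical axis) held by the top genes of each library (horizontal axis, rank on a log scale), 1 line per replicate. The commonest bin is 10 to 100 TPM with 6210 genes, 1921 genes have no count, and the 4 lines nearly coincide.

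The 20 most abundant transcripts were mainly those of the translation machinery. *rpl-41.2*, which codes for a very short protein of the large ribosomal subunit, ranked first with 8887, 8388, 8428 and 8935 TPM, a mean of 8659 ± 292 TPM. *eef-1A.1*, the elongation factor that brings tRNAs to the ribosome, came next at 5888 ± 352 TPM. Their levels differed little between the libraries. Ribosomal protein genes filled 13 of the 20 places under symbols that begin with rpl or rps, *rps-23* (4799 ± 67.8 TPM) and *rps-25* (4706 ± 94.6 TPM) leading the small subunit. Other places held *asp-1*, an aspartyl protease of the gut (5382 ± 858 TPM), and *far-2*, a fatty acid and retinol binding protein (4282 ± 21.3 TPM). Also among the 20 were *acdh-1*, an acyl-CoA dehydrogenase of propionate breakdown (3942 ± 132 TPM), and the cuticle collagen *col-73* (4921 ± 863 TPM). The rest were *C17F4.7* and *Y37E3.8*, which carry only clone names that do not tell what they code for. *C17F4.7* (II:3245087-3246015) was the least steady of the 20, with 4181, 7871, 4886 and 6515 TPM.

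Grouped by role, 41 classes of protein-coding genes took in 4292 genes and 49.3% of all TPM. The 84 cytosolic ribosomal proteins found by symbol held 24.9% ± 0.471, with 24.9%, 24.3%, 25.5% and 25.1% in the 4 libraries. Any ribosomal protein under a clone name was not counted among them. All 84 were above 1 TPM and 80 above 1000 TPM. The 37 translation initiation and elongation factors held 1.57% ± 0.036, and the 33 proteasome subunits, which degrade ubiquitin-tagged proteins, 0.596% ± 0.00964. The sums of these machinery classes differed by at most 1.05 times between the highest and the lowest library.

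Genes of energy metabolism followed. The 47 nuclear genes of the respiratory chain and ATP synthase summed to 19628 ± 751 TPM, led by the ATP synthase subunits *atp-2* (1817 ± 127 TPM) and *atp-1* (1750 ± 109 TPM). The 12 protein-coding genes of the mitochondrial genome summed to 4962, 5831, 3847 and 5090 TPM, replicate 3 being the lowest. The 19 glycolytic genes summed to 4180 ± 398 TPM, led by *gpd-3*, a glyceraldehyde 3-phosphate dehydrogenase that has a near-identical copy (822 ± 74.1 TPM), and by the aldolase *aldo-2* (818 ± 89.9 TPM). Every gene of these classes averaged at least 1 TPM.

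Cuticle collagens were the largest class after the ribosomal proteins. The 177 genes held 8.19%, 5.24%, 6.38% and 5.87% of TPM, so replicate 1 was the highest and replicate 2 the lowest. Of the 177, 127 averaged at least 1 TPM, 28 at least 1000 TPM, and 8 had no count. *col-73*, *dpy-13* (2974 ± 584 TPM), whose loss makes short and stout animals, and *col-38* (2568 ± 365 TPM) were among the most abundant. *rol-6*, a collagen known for its rolling mutants, was steady at 711, 661, 776 and 739 TPM. Secreted proteins that work beside the collagens were less abundant. The 104 genes of molting and the apical matrix summed to 2959, 3488, 3467 and 3499 TPM, replicate 1 being lowest, and the 84 hedgehog-related genes, a nematode family of secreted and patched-like proteins, to 4626 ± 316 TPM. The 11 genes of the basement membrane, the sheet under epithelia and muscle, summed to 1643 ± 104 TPM, led by *ost-1*, the worm SPARC (653 ± 49.7 TPM), and *let-2*, a collagen IV chain (387 ± 34.2 TPM).

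**Figure D2:**
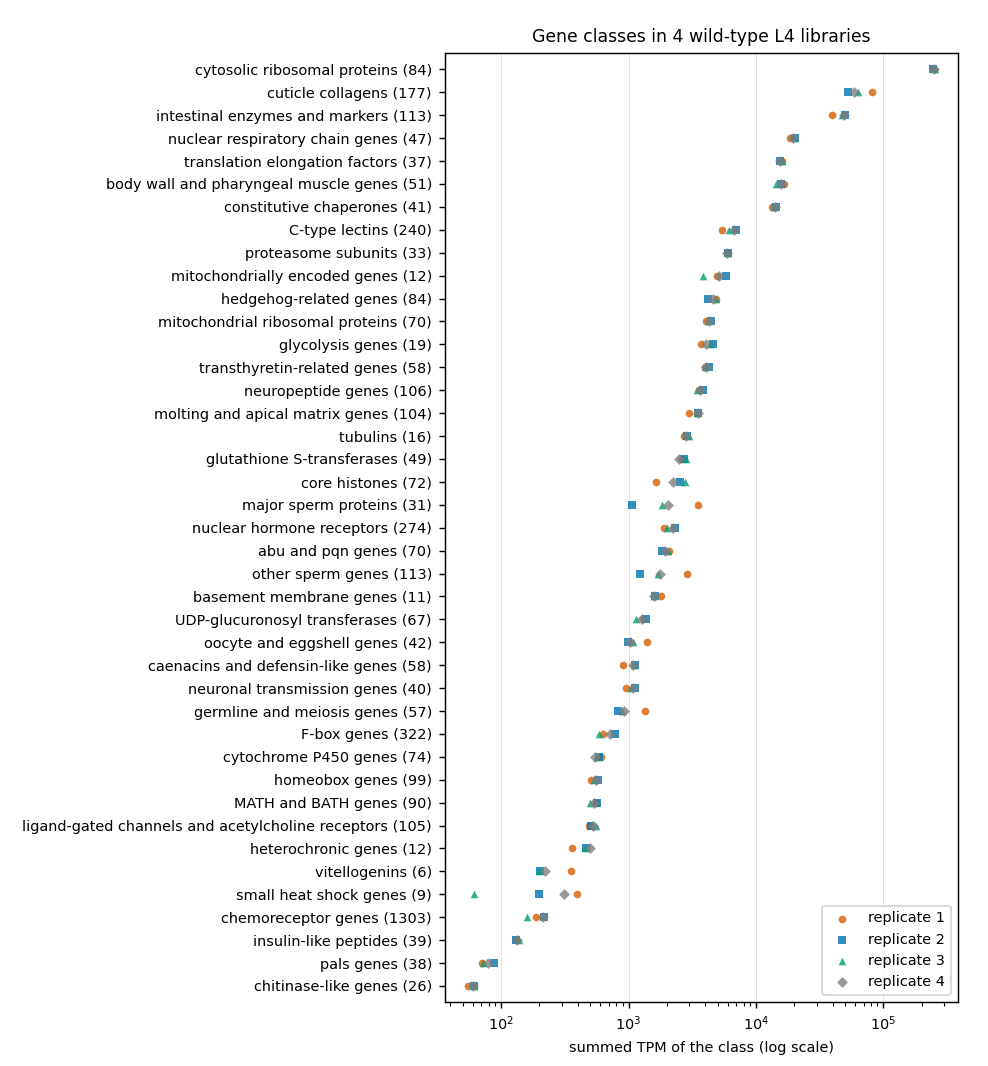
Summed TPM (horizontal axis, log scale) of each gene class in each of the 4 wild-type L4 libraries, 1 symbol per replicate, with the number of members in brackets. Ribosomal proteins hold 24.9% of TPM, and the machinery classes overlap between libraries. The major sperm proteins (1071 to 3520 TPM) and the heat-inducible chaperone genes (61.6 to 397 TPM) are the most spread. The latter are labelled small heat shock genes but include inducible HSP70 genes.

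Intestinal genes held 4.65% ± 0.497 of TPM. The 113 genes of gut fate, digestion and lipid handling summed to 39230, 50227, 47305 and 49066 TPM, and replicate 1 was the lowest. *asp-1*, with 4119, 5961, 5576 and 5872 TPM, and *act-5*, the actin of the microvilli (1565, 2404, 2307 and 2139 TPM), showed that same low value in replicate 1. Not every member did: *far-2*, which with *asp-1* led the class, was level at 4294, 4281, 4301 and 4253 TPM. *elt-2*, the GATA factor that specifies the intestine, was at 44.5 ± 9.8 TPM. The C-type lectins, many of them secreted by the gut, held 0.63% of TPM, but 2 of the 240 genes made up 40.4% of that sum. These were *clec-63* (1703 ± 341 TPM) and *clec-50* (843 ± 139 TPM). Of the 240, 51 had no count.

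The 51 muscle genes held 1.56% ± 0.0852 of TPM and all of them averaged at least 1 TPM. *act-1* was at 1787 ± 73.4 TPM, though the counts of *act-1* and its near-identical actin copies may have been split between them. *unc-54*, the major body wall myosin, was at 950, 880, 791 and 861 TPM, and *myo-2*, a myosin of the pharynx, at 13.4, 6.5, 7.91 and 6.95 TPM. Neuronal genes were fewer transcripts. The 40 genes of transmitter synthesis and release summed to 1050 ± 68.9 TPM and the 106 neuropeptide genes to 3637 ± 161 TPM. *nlp-36* (554 ± 71.4 TPM) and *nlp-33*, an antimicrobial peptide of the epidermis (715, 376, 433 and 429 TPM), led the neuropeptide symbols. *unc-25*, the GABA-synthesizing enzyme, was at 20.9 ± 1.51 TPM and *eat-4*, the glutamate transporter of synaptic vesicles, at 2.19 ± 0.188 TPM.

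The stage label was compared with markers, of which those of sperm, oocytes, yolk and the adult cuticle were detected in every library, and so were those listed for other larval stages. Sperm genes were on in every library: the 31 major sperm proteins, the abundant cytoskeletal proteins of nematode sperm, summed to 3520, 1071, 1837 and 2024 TPM, and *spe-11*, a paternal factor carried into the egg, was at 21.9, 7.04, 11.3 and 11.8 TPM. Oocyte markers were lower, with *oma-1*, a maturation factor, at 12.4, 4.92, 6.54 and 6.72 TPM, and *rme-2*, the yolk receptor, at 4.31 ± 1.44 TPM. The 6 vitellogenins summed to 354, 203, 198 and 222 TPM, against the 5382 TPM of *asp-1* alone. In each of these groups replicate 1 was the highest. *bli-1* and *bli-2*, collagens of the struts of the adult cuticle, were at 392 ± 140 TPM and 1284 ± 208 TPM. *col-19*, a collagen of the adult cuticle, was at 18.1 TPM in replicate 1 and at 1.2, 1.33 and 1.74 TPM in the others. Of the 5 genes listed under dauer, the collagens *col-2* and *col-40* and the cuticlin *cut-1* averaged 0.037, 0.169 and 0.0979 TPM. The insulin-like peptides *daf-28* and *ins-1* in that list were detected in every library, at 3.86 ± 0.244 and 2.31 ± 0.542 TPM. Detection of these peptides was not read as a sign of dauer. The 3 markers listed for other larval stages were detected as well, with *col-10*, a cuticle collagen, at 527, 480, 335 and 339 TPM, *lin-14*, a heterochronic regulator of early larval fates, at 19.9 ± 2.59 TPM, and *lin-28*, which acts early in larval life, at 14.5 ± 0.635 TPM. The male markers *her-1* and *clec-207* averaged 0.166 and 0.0767 TPM, and *mab-3*, which keeps vitellogenins off in males, 2.93 ± 1.14 TPM.

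**Figure D3:**
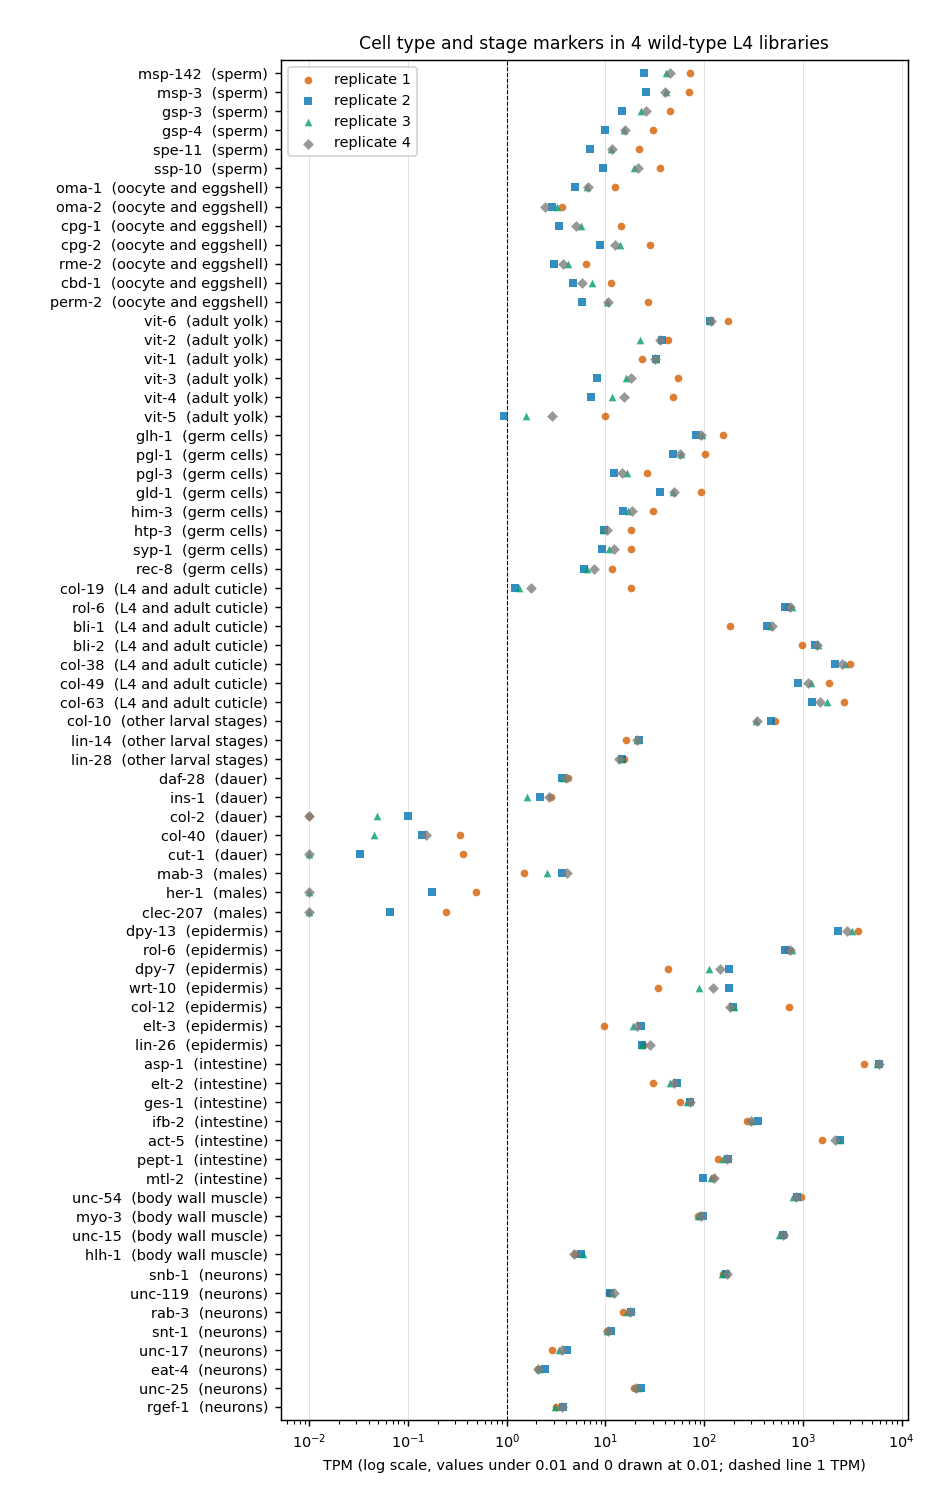
TPM of marker genes (horizontal axis, log scale, with values of 0 and under 0.01 drawn at 0.01) in the 4 libraries, 1 symbol per replicate. All sperm, oocyte and germ cell markers lie highest in replicate 1, and all but *oma-2* (2.44 TPM in replicate 4) and *htp-3* (9.52 TPM in replicate 3) lie lowest in replicate 2. Of the genes listed under dauer and males, *daf-28*, *ins-1* and *mab-3* lie above 1 TPM in every library and the other 5 below it.

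Of the protein-coding genes, 1921 (9.65%) had no count in any of the 4 libraries, whose 90874762 counts together allow a level of up to 0.033 CPM (3 counts), or about 0.0403 TPM for a gene of 1 kb. Such limits cover counting error only. Chemoreceptors, the receptors that sensory neurons use for odours and tastes, made up 31.4% of these silent genes, while 1057 of the 1921 lay in none of the classes and 903 of those had clone names only. Of 1303 chemoreceptor genes, 603 had no count and 19 averaged at least 1 TPM, and the whole family summed to 187, 219, 159 and 212 TPM. The levels of its leading members were *srr-4* at 30.7 ± 2.78 TPM and *srv-1* at 24.2 ± 4.05 TPM. The share without a count differed between the subfamilies, from 76.1% of 71 srbc genes and 65.1% of 63 srz genes to 47.7% of 220 srh genes and 27.8% of 54 sre genes.

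F-box genes, which code for substrate adaptors of ubiquitin ligases, showed a like divide. Of 104 fbxb genes 68 had no count, but of 170 fbxa genes only 20. *fbxa-72*, the most abundant, averaged 99.1 ± 23.5 TPM. Silent genes often sat side by side: 640 of the 1921 (33.3%) lay in 159 runs of at least 3 adjacent protein-coding genes without a count. The longest run held 18 genes on V:16972434-17022663, of which 9 were chemoreceptor genes and 2 were C-type lectin genes. Another held 10 genes on V:2933143-2963060, all of the srh and srw subfamilies. A run of 9 genes on II:1545925-1571132 had 6 fbxb genes. Chromosome V had the highest share of silent genes, 17% of 4992, and III the lowest among the nuclear chromosomes, 4.04% of 2621. Of the genes with the longest models and no count, *gcy-14* codes for a receptor guanylyl cyclase of a taste neuron and *tbx-31* for a T-box factor.

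Among families that respond to infection, the *pals* and chitinase-like genes were mostly low in these animals, which were fed OP50-1 alone. Of the 38 *pals* genes, the family that holds PALS-22 and PALS-25, 11 averaged at least 1 TPM and 3, *pals-8*, *pals-10* and *pals-28*, had no count. *pals-17* (13.2 ± 2.64 TPM), *pals-18* (12.8 ± 1.19 TPM) and *pals-24* (11.6 TPM) were the most abundant. *pals-22*, a repressor of the response to intracellular pathogens, was at 5.19, 7.01, 5.55 and 4.81 TPM. *pals-25*, its partner in an operon and an activator of that response, was at 2.72, 3.16, 2.95 and 2.65 TPM, so every value of *pals-25* was below every value of *pals-22*. All of the 8 most abundant *pals* genes lay on chromosome III. Of the 26 chitinase-like genes 5 had no count and 6 averaged at least 1 TPM, and *chil-10* (41.8 ± 2.09 TPM) and *chil-13* (5.41 ± 0.197 TPM) made up 79.5% of the family's sum. Nuclear hormone receptors and homeobox genes were detected in somewhat smaller shares than the 67% of all protein-coding genes, whose median was 4.65 TPM. Of 274 nuclear hormone receptors 174 (63.5%) averaged at least 1 TPM, with a median of 2.99 TPM. The most abundant was *nhr-114*, a receptor of the gut and germ line (299 ± 65.7 TPM). Of 99 homeobox genes 59 (59.6%) averaged at least 1 TPM, with a median of 1.74 TPM. All 12 heterochronic genes, which time the larval stages, were detected, led by *lin-42*, the worm Period homologue (162, 197, 212 and 241 TPM).

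Outside the protein-coding genes, little was seen in these libraries, whose kit selects polyadenylated RNA. Of 15363 piRNA loci, whose products are 21 bases long, 15003 had no count, and the whole class held 928 counts. At that length 1 TPM stands for less than 1 count (0.245 to 0.458), so their TPM cannot be read as a level. The long non-coding RNA *lep-5* (X:12652591-12653520), which helps to time the change to adulthood, was an exception chosen after its values were seen, at 917, 907, 877 and 927 TPM. It made up most of the 1135 TPM of all 185 lincRNA genes.

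The spread between libraries was measured for the 9759 genes that averaged at least 5 CPM, counts relative to the library size as scaled by the TMM method, as the SD over the 4 libraries of log2(CPM + 0.5). The median SD was 0.14, and counting error alone gives about 0.14 at 5 CPM and less above. Of the 9759 genes, 824 (8.44%) had an SD of at least 0.5 and 54 an SD of at least 1. The common biological coefficient of variation from edgeR was 0.182. None of the 83 ribosomal proteins, 70 mitochondrial ribosomal proteins, 33 proteasome subunits or 28 homeobox genes in the test reached 0.5.

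**Figure D4:**
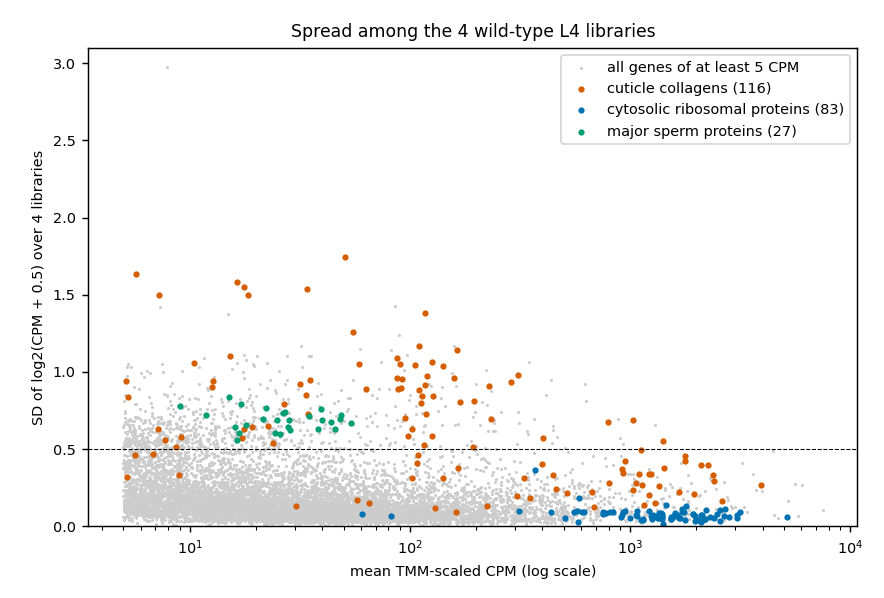
SD of log2(CPM + 0.5) over the 4 libraries (vertical axis) against mean TMM-scaled CPM (horizontal axis, log scale) for 9759 genes. The dashed line marks 0.5. All 27 major sperm proteins and 66 of 116 cuticle collagens lie above it and no ribosomal protein does.

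The variable genes fell mostly into a pair of opposed patterns. Of the 824, 481 (4.93% of all 9759) were highest in replicate 1 and lowest in replicate 2, and 205 (2.1%) were highest in replicate 2 and lowest in replicate 1. The first set summed to 39921, 12600, 18659 and 18071 TPM and the second to 4017, 13087, 8741 and 9945 TPM. The position of replicates 3 and 4 between the other two in these sums follows from how the sets were chosen. Without replicate 1, 139 genes had an SD of at least 0.5, and 124 of the 824 were among them. With all libraries thinned to the depth of replicate 1, 845 did, so the count was as large at equal depth.

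Many sperm and oocyte genes belonged to the set that was highest in replicate 1 and lowest in replicate 2. All 27 major sperm proteins in the test varied and had that order, as did 32 of 55 other sperm genes, against 4.93% of all genes. *msp-59* was at 241, 75.2, 124 and 137 TPM and *gsp-3*, a phosphatase of sperm, at 44.9, 14.8, 22.7 and 25.5 TPM. The msp genes are near-identical in sequence, so they are not independent measurements and the split of reads between them is uncertain. Of 30 oocyte and eggshell genes 16 had the order. *cpg-1*, a chondroitin proteoglycan of the eggshell, was at 14.2, 3.39, 5.63 and 5.06 TPM, and *perm-2*, a protein of the eggshell's permeability barrier, at 27.2, 5.81, 10.3 and 10.6 TPM. The 2 most abundant members, which made up 59.9% of the class's sum, stayed under an SD of 0.5. *cpg-7* was at 511, 323, 410 and 370 TPM (SD 0.275). *cpg-9* was at 269, 298, 261 and 256 TPM (SD 0.0894) and was highest in replicate 2. Of 48 germline and meiosis genes, 4 had an SD of at least 0.5, a share of 8.33% that was close to the 8.44% of all genes. One of them, *gld-1*, a translational repressor of the germ line, was at 92.6, 35.4, 48.3 and 49.6 TPM. Under that bound the germline class still differed from all genes, with a median SD of 0.359 against 0.138. In it 45 of 48 genes were highest in replicate 1, against 3096 of all 9759. For 35 of the 48 replicate 1 was highest and replicate 2 lowest, against 1816 of the 9759. Summed over the class, the germline genes were at 1343, 826, 895 and 915 TPM. These counts moved with the libraries used: without replicate 1, 13 of 27 major sperm proteins, 11 of 53 other sperm genes, 1 of 25 oocyte genes and 0 of 46 germline genes varied, and without replicate 2, 7 of 27 major sperm proteins, 12 of 56 other sperm genes, 12 of 31 oocyte genes and 5 of 48 germline genes did. Of 48 germline genes, 11 varied without replicate 3 and 10 without replicate 4.

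Yolk genes divided. *vit-5* was at 9.8, 0.934, 1.55 and 2.87 TPM and *vit-4* at 48.5, 7.18, 11.7 and 15.4 TPM, with SDs of 1.38 and 1.14. *vit-3* was at 54.2, 8.14, 16.1 and 18.2 TPM. In these 3 genes replicate 1 lay at least 2.99 times above every other library. *vit-2* was at 42.6, 37.6, 22.3 and 35.3 TPM and *vit-1* at 23.6, 32.9, 32.4 and 31.7 TPM, where replicate 1 was the lowest. *vit-6*, the most abundant, was at 176, 116, 114 and 118 TPM.

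Cuticle collagens were found in both sets. Of 116 in the test, 66 varied: 25 were highest in replicate 1 and lowest in replicate 2, 22 had the opposite order and 19 had another one. Whichever library was at the other end, 41 of the 66 were highest in replicate 1 and 25 were lowest in it. Among those highest in replicate 1 and lowest in replicate 2, *col-88* (III:41063-41971) had the largest SD, 1.74, with 206, 13.3, 19.7 and 22.1 TPM. *col-19* (X:421707-422691) had an SD of 1.64. *col-124* was at 110, 9.89, 13.7 and 14.2 TPM, *col-60* at 356, 42.1, 53.6 and 61 TPM, and *col-162* at 553, 100, 121 and 115 TPM. In all of these replicate 1 was far above the others. Replicate 1 was also far above the others in *col-140*, *col-139*, *col-178*, *col-129*, *col-106* and *col-120*, whose SDs ran from 1.16 to 1.58, although in *col-139* replicates 2 to 4 still ranged from 4.24 to 9.67 TPM. Another epidermal collagen, *col-12*, had 725, 197, 199 and 182 TPM, and belonged to the 19 in other orders, since it was lowest in replicate 4. The 25 collagens that were highest in replicate 1 and lowest in replicate 2 summed to 10647, 3063, 4365 and 3833 TPM. The 19 in other orders summed to 4263, 2061, 1839 and 1802 TPM. Without replicate 1, only 11 collagens varied.

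The opposite order held for another part of the cuticle and molting program. The 22 collagens of that group summed to 667, 2712, 1477 and 1799 TPM, with *col-149* at 45.9, 253, 114 and 175 TPM and *col-147* at 37.1, 215, 84.1 and 102 TPM, both named after their values were seen. Of 50 molting and apical matrix genes 15 had this order, and of 50 hedgehog-related genes 9, against 2.1% of all genes. In each of these classes 4 others had the reverse order, highest in replicate 1 and lowest in replicate 2, against 4.93% of all genes. *fbn-1* (III:7625386-7641078), a fibrillin-related matrix protein, was at 2.9, 22.4, 8.1 and 12.3 TPM, and *dpy-6*, a mucin-like protein, at 2.61, 18.7, 7.33 and 10.1 TPM. *let-653*, a matrix protein of narrow tubes also named after its values were seen, was at 4.61, 26.2, 12.3 and 15.2 TPM. *dpy-7*, an epidermal collagen, was at 42.8 TPM in replicate 1 and 179 TPM in replicate 2, and *wrt-10*, a hedgehog-related protein, at 34.4, 177, 88 and 123 TPM. In each of these genes replicate 1 was the lowest and replicate 2 the highest. Without replicate 1 only 2 of 50 molting and 3 of 47 hedgehog-related genes varied in any order. The most abundant gene of each class had the reverse order instead. The hedgehog-related *grl-16* was at 1172, 372, 551 and 490 TPM and *cut-2*, of the molting class, at 883, 375, 617 and 532 TPM. The 50 collagens with an SD under 0.5 were the abundant ones, with a median of 1097 TPM. They summed to 66257, 44527, 56082 and 51206 TPM, so their sum too was highest in replicate 1 and lowest in replicate 2.

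**Figure D5:**
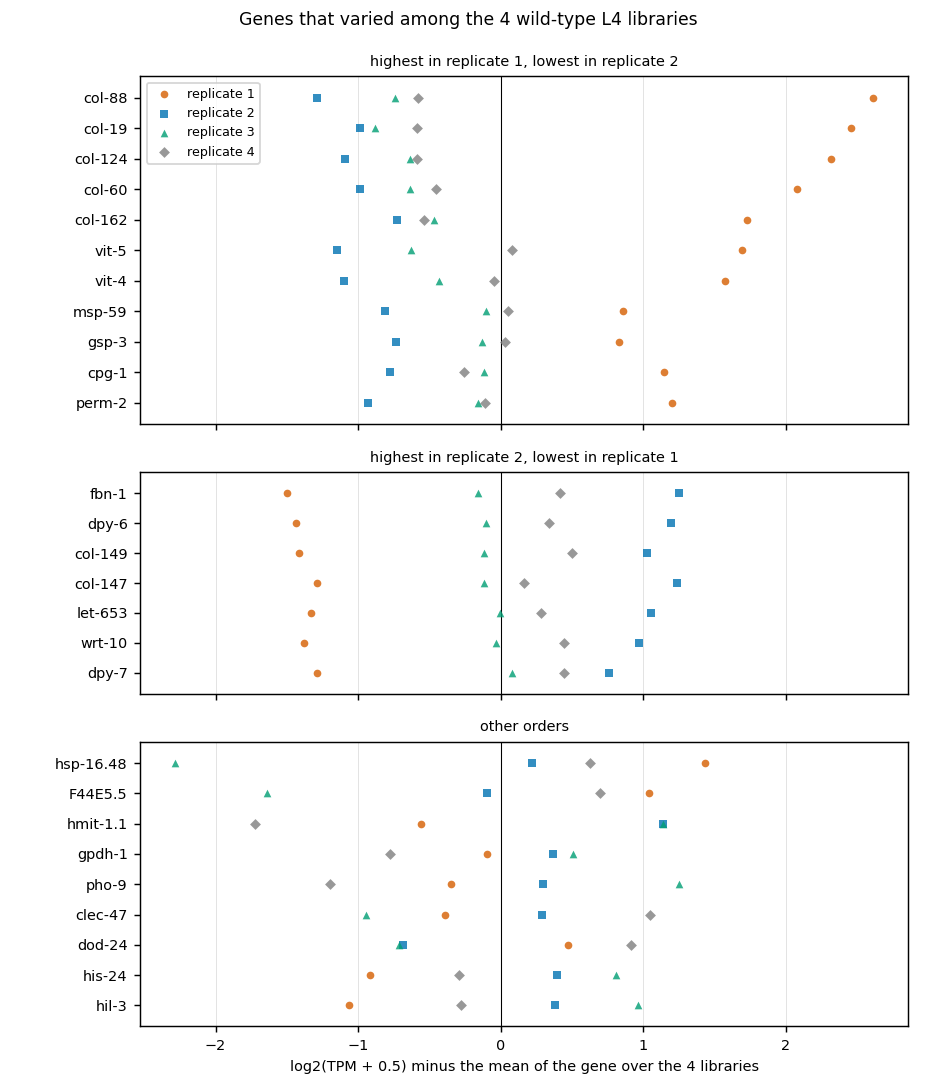
Deviation of log2(TPM + 0.5) from the gene's own mean over the 4 libraries (horizontal axis) for genes that varied, 1 symbol per replicate. In the top panel replicate 1 lies to the right and replicate 2 to the left, the middle panel has the reverse, and in the bottom panel the libraries take other orders, such as replicate 3 far to the left for *hsp-16.48*.

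The remaining 138 variable genes had other orders, and several of them moved in small groups. All 7 heat-inducible chaperone genes in the test varied. They include 2 identifiers under the symbol *hsp-16.1* and the near-identical pair *F44E5.4* and *F44E5.5*, so they are not 7 independent measurements. *hsp-16.48* (WBGene00002019, since the symbol is carried by 2 identifiers) was at 40.9, 17.4, 2.65 and 23.2 TPM, and *F44E5.5*, an inducible HSP70 with a near-identical neighbour, *F44E5.4*, at 156, 70.5, 23.9 and 123 TPM. The class summed to 397, 200, 61.6 and 313 TPM, so replicate 3 was the lowest and replicate 1 the highest. Constitutive chaperones did not share this, with *hsp-1*, the cytosolic HSC70, at 1705, 1448, 1496 and 1553 TPM and none of 38 members at an SD of 0.5 or more. Leaving out replicate 3 left 4 of the 7 heat-inducible genes past that bound.

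*hmit-1.1* (V:18516789-18523875), which codes for a myo-inositol transporter induced by high salt, was at 24.8, 81.8, 81.8 and 10.8 TPM. Its paralogue *hmit-1.2*, at 1.79, 5.58, 7.05 and 1.77 TPM, and *gpdh-1*, the glycerol 3-phosphate dehydrogenase induced in hyperosmotic medium, at 29.2, 40.5, 44.8 and 18 TPM, had replicates 2 and 3 above replicates 1 and 4 as well. Both were named after their values were seen. *pho-9*, a phosphatase gene, was at 13.3, 21.1, 41.4 and 7.2 TPM. *clec-47* and *dod-24*, a gene downstream of the insulin receptor pathway, peaked in replicate 4, *clec-47* at 150, 240, 102 and 406 TPM and *dod-24* at 362 TPM against 117 to 266 TPM. *lipl-1*, a lysosomal lipase, and *asm-3*, an acid sphingomyelinase, were highest in replicate 3, at 21.2, 13, 41.7 and 11.1 TPM and at 21.1, 7.96, 31.9 and 9.38 TPM. These 5 were also named after their values were seen.

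Histone genes formed a further group. Of 36 in the test 21 varied, 18 of them in other orders than the pair described above. The class summed to 1653, 2530, 2764 and 2222 TPM, with replicate 1 the lowest, and without replicate 1 only 1 of 38 varied. *his-24*, a linker histone, was at 141, 352, 468 and 219 TPM, and *hil-3*, a linker histone gene named after its values were seen, at 81.1, 221, 332 and 140 TPM. *his-72*, a replication-independent H3, was at 222 ± 11.7 TPM. Most core histone mRNAs carry no poly(A) tail, so a poly(A) library catches them only in part, and ribosomal RNA, which also lacks that tail, took its lowest share in replicate 1 and its highest in replicate 3. Whether the carry-over of such RNA had a part in the histone values was not tested.

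The gene with the largest SD of all, 2.98, was *fbxb-72* (V:722646-723952), an F-box gene. It had 0, 834, 0 and 1 counts, a level of 35.6 TPM in replicate 2 and of 0.0475 TPM in replicate 4. Without replicate 2 the gene had 1 count in all, so replicate 2 alone carried this value.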

How the data were processed

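Whole wild-type L4 animals were sequenced in 4 libraries made with a stranded poly(A) kit. The authors aligned paired-end reads to WS235 with Rsubread, counted them with featureCounts and deposited raw counts per gene with gene lengths. The sources used here do not give the strand setting, the annotation release or the handling of reads that match several places, so values of near-identical, overlapping and antisense genes are uncertain. The columns of the 12 libraries of other genotypes were not used.

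TPM were computed from the counts and the deposited lengths, which lay within 10% of the merged exon length of the Ensembl 115 annotation (WBcel235) for 89.7% of genes. Of 46904 identifiers 44017 had a symbol. Spread was computed on TMM-scaled CPM (edgeR 4.0.16, R 4.3.3) with a pseudocount of 0.5. In counts simulated with a dispersion of 0.01, all 200 of 200 genes raised 4-fold in a single library passed an SD of 0.5. A change of that size lies well past the bound and the simulated dispersion was low. The check therefore shows only that the computation ran as meant. Classes were chosen by symbol patterns (the mitochondrial genome by chromosome), and members and lists were chosen with earlier results of these data known. The text took its genes from the 20 most abundant, the top 2 of each class, the stage and cell type markers, the 20 with the largest SD, the 5 longest silent genes, *pals-22*, *pals-25* and *snb-1*. Outside this rule, the other qRT-PCR targets and 4 further *pals* genes (*pals-8*, *pals-10*, *pals-24* and *pals-28*) were named after the data were seen, as were the genes so described in the text. Alternatives were other scalings (DESeq2 1.42.0 size factors, library totals), pseudocounts, filters and length corrections, thinning to equal depth, and leaving out each library. TPM over genes of at least 200 bases and detection in thinned counts were chosen after seeing the data. Since nothing says how the cultures were kept apart beyond the label of biological replicates, the spread is that between these 4 libraries.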

Additional observations from a re-analysis of the deposited data

Results flagged for a closer look

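A class sum or gene was picked out when the gap between its highest or lowest library and the nearest other one, divided by the range over the 4 libraries, passed Dixon's critical value at the 95% level. Chance picks about 1 in 20 groups. Of the 9759 genes of at least 5 CPM, 723 (7.41%) passed, with replicate 1 the library apart in 537 of these. Of the 157 class sums and named genes 25 passed, but 12 of the 25 are among the 20 genes named for the largest SD, so this share cannot be read against that of all genes.

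Among the classes, replicate 1 was apart for the summed TPM of the vitellogenins (0.845, highest), the basement membrane genes (0.849, highest) and the molting and apical matrix genes (0.942, lowest). Among the collagens it was apart on the high side for *col-12* (0.969), *col-19* (0.968), *col-60* (0.94), *col-88* (0.954), *col-106* (0.924), *col-120* (0.932), *col-124* (0.957), *col-129* (0.948), *col-139* (0.904), *col-140* (0.936), *col-162* (0.955), *col-178* (0.982) and the basement membrane collagen *let-2* (0.967). It was apart on the low side for *bli-1* (0.851) and *vit-1* (0.875), and on the high side for *vit-6* (0.922), *htp-3* (0.909) and *nlp-33* (0.832).

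The near-silent genes *cut-1* (0.91), *chil-27* (1) and *F26F2.3* (0.854) were also highest in replicate 1, at 0.359, 0.0699 and 0.201 TPM, levels that rest on few counts. Replicate 2 was apart for *fbxb-72* (0.999).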

How the results depend on the processing

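No paired analysis was possible because the 4 libraries form 1 group and no groups were compared. The share of the ribosomal proteins, 24.9% of TPM, became 30.7% with lengths shortened by 200 bases and 12.6% as a share of counts without length, and stayed between 24.8% and 25.1% when a library was left out. The 14202 genes detected fell to 7686 at 10 TPM and ran from 14017 to 14240 without 1 library. The 25500 silent genes of all kinds, of which 1921 code for proteins, became 25939 to 26196 without 1 library. The 238 genes that make up 50% of TPM became 428 by counts and 234 to 242 without 1 library. The 824 variable genes became 54 at an SD of at least 1, 1502 with a filter of 1 CPM, 310 with one of 20 CPM, and 139 to 1097 without 1 library, the lowest without replicate 1. They were 825 with DESeq2 size factors, sharing 818 genes, and 856 with library totals, sharing 793. Of the 20 genes with the largest SD, 18 had a value without replicate 1, and 8 of these fell under 0.5. Depth limits the low genes most: 11.7 counts stood behind 1 TPM of a 1 kb gene in the shallowest library.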

Other observations

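Detoxification and secreted protein families add to the description of the wild-type animals. Of 74 cytochrome P450 genes, which oxidize xenobiotics and lipids, 43 averaged at least 1 TPM and none was without a count, with a sum of 572 ± 31 TPM. The 67 UDP-glucuronosyl transferases, which conjugate small molecules, summed to 1271 ± 97.2 TPM with 50 at 1 TPM or more, and the 49 glutathione S-transferases to 2655 ± 141 TPM. The 58 transthyretin-related genes, a nematode family of secreted proteins, summed to 4088 ± 138 TPM. Of 39 insulin-like peptides 18 averaged at least 1 TPM and the family summed to 133 ± 3.01 TPM.

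By chromosome, protein-coding genes on X held 10.1% of coding TPM, with sums of 92646, 104479, 100893 and 101596 TPM, so replicate 1 was the lowest. On chromosome IV, 202 of 1659 protein-coding genes of at least 5 CPM (12.2%) had an SD of at least 0.5 among the libraries, against 84 of 1679 (5.0%) on III. Of the 481 genes that were highest in replicate 1 and lowest in replicate 2, 146 (30.4%) lay on IV and 31 (6.44%) on X, and of the 205 with the opposite order 38 (18.5%) lay on IV and 44 (21.5%) on X. Of all 9759 genes 17.2% lay on IV and 13.4% on X.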
